A study of Arabidopsis thaliana with 8 samples.

Results

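The effect of a steroid hormone on shoot transcripts of Arabidopsis seedlings was examined after 1 h of heat at 43 °C. Seedlings of the Columbia ecotype, 21 days old, had grown on medium with 24-epibrassinolide (EBR, a synthetic brassinosteroid, 1 µM) or with 0.01% ethanol as the control, and both arms were heated. The comparison uses 2 of the 8 deposited samples, EBR at 1 h and control at 1 h. The other 6 samples are the same arms at 0 h (no stress), after 3 h at 43 °C, and after 6 h at 22 °C following the 3 h heat, here called recovery. Per the labels, 3 biological replicate arrays lie behind each sample, and tissue of at least 30 seedlings was pooled per treatment. All groups are wild-type shoots above the medium, and EBR was present throughout growth rather than added at the time of heat. The measured features were 22746 probe sets of the ATH1 array, with 11 array control probe sets left out.

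Brassinosteroids are perceived at the cell surface by the receptor kinase BRI1, and the signal releases transcription factors that promote cell elongation and adjust many stress and defence genes. Heat shock factors drive chaperone genes within minutes of a temperature rise in plants. Dehydration and cold genes, lipid transfer proteins and defence genes answer mostly to other hormones, among them abscisic acid, salicylate and jasmonate.

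The main measure was the log2 ratio of EBR over control at 1 h from the deposited value table, whose values are linear ratios that were read as relative to the control of the same stage. A log2 ratio of 1 is a 2-fold difference, which was the threshold. With 1 deposited value per group there is no replicate test at this stage, so differences are given as values and counts. An approximate SD of the control arrays was read from how far each control value lay below 1, with a median of 0.0985 on the log2 scale. The approximate SE of a ratio follows from it and assumes that EBR arrays vary like control arrays. It does not cover differences between the value table and the authors' deposited tables. Genes could be named where the authors' deposited tables list the probe set with 1 locus, which holds for 692 of 733 listed probe sets. In shoot tissue, a difference can come from fewer cells of a type or from less RNA per cell, which cannot be told apart. No named gene fell in the marker lists for shoot, root or seed storage, so the labelled tissue could not be checked against them.

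Most transcripts were close between the arms after 1 h of heat. The ratio lay within 0.5 of 0 for 21331 probe sets (93.8%), and the median over all probe sets was −0.01. At least 2-fold higher with EBR were 154 probe sets (0.677% of all), with a median ratio of 1.33, and 28 (0.123%) were at least 2-fold lower, with a median of −1.12. Higher values thus made up 84.6% of the 182 probe sets past the threshold. At 4-fold or more there were 18 higher probe sets and 1 lower. Of those past 2-fold, 92 higher and 14 lower ones carry a gene name, and 68 lie outside the authors' tables. At the edge of the threshold lay RPS2, an intracellular immune receptor gene, at 1.01 and SPDS3, annotated as a spermidine synthase, at 0.99. On the lower side AT2G34357 lay just past the threshold and the beta-tubulin gene TUB8 just inside it, at −0.99. In all 4 array control pairs for actin and GAPDH, the 3′ minus 5′ difference was larger in EBR than in control, by 0.29 to 0.57 on the log2 scale. The part of this difference in the counts was not tested.

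Lipid transfer proteins are small secreted proteins that bind lipids at the epidermis and cell wall. Of the named genes, LTP3 and LTP4 of this family held the highest ratios in the value table. In the log2 columns of the authors' deposited table, LTP4 at 4.03 and LTP3 at 3.76 lay below the defence genes WAK1 at 4.41 and LURP1 at 4.15. LTP3 had a mean signal of 305 in control and 1942 with EBR in the authors' deposited table, and its ratio in the value table was 3.93. This ratio has an approximate SE of 1.53, since the control arrays of LTP3 at 1 h had an approximate SD of 1.87. LTP4, its close relative, had signals of 244 and 1802 and a ratio of 3.63 ± 0.75 (approximate SE). LTP2 had signals of 92.1 and 950 and a ratio of 2.31 ± 0.11. The EBR signal was the higher one for each of these genes, although hybridisation to related transcripts can be shared between LTP3 and LTP4. The relatives EARLI1 and AT5G01870 had ratios of 1.54 and 1.08. All 5 named members of the list of 17 lipid transfer proteins were at least 2-fold higher, with a median of 2.31, beside 13.3% of the 692 named genes. The wider Gene Ontology term lipid transport was less uniform. Of its 10 named genes, 6 were at least 2-fold higher and 4 lay within 2-fold, 1 of these below 0, with a median of 1.23. The named genes were selected by the authors on these arrays, so these shares are no independent evidence of a direction.

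**Figure D1:**
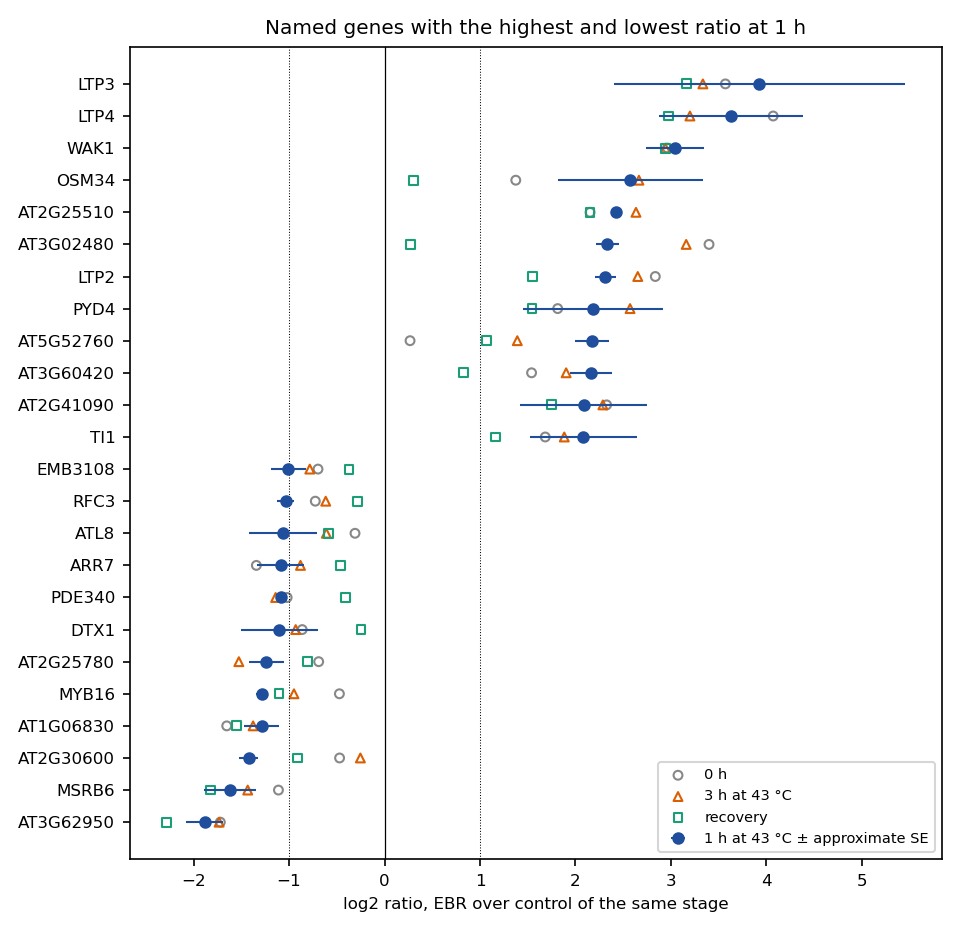
Log2 ratio of EBR over control (horizontal axis) for the 12 highest and 12 lowest named genes at 1 h; filled blue points are the 1 h ratio with an approximate SE, open marks the other stages, dotted lines mark 2-fold. LTP3 has the longest error bar, from an approximate control SD of 1.87, and the mark of AT5G52760 at 0 h (0.27) lies far from its 1 h ratio (2.17).

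Defence genes formed the next group. WAK1, a wall-associated receptor kinase that binds pectin, had mean signals of 14.3 in control and 302 with EBR in the authors' deposited table. Its ratio was 3.04 ± 0.30 (approximate SE) in the value table, against a log2 difference of 4.41 in the authors' deposited table. OSM34, an osmotin-like protein, had signals of 120 and 606 and a ratio of 2.57 ± 0.76. LURP1, a gene needed for basal resistance to an oomycete, had signals of 7.16 and 213 and a ratio of 2.00. WRKY70, a transcription factor at the balance of salicylate and jasmonate responses, had signals of 277 and 1211 and a ratio of 1.71. Of the list for salicylate and defence, 8 of 20 members were named, and 5 were at least 2-fold higher, none lower, with a median of 1.41. Of all named genes, which the authors selected on these arrays, 13.3% were as high, and of all probe sets 0.677%. Its other named members are the chitinase genes CHI at 1.12 and HCHIB at 0.93, the kinase WAK2 at 0.94 and the immune regulator CBP60G at 0.68.

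Gene Ontology terms, taken from the authors' deposited table, describe partly the same genes. For defence response to fungus, 5 of 9 named genes were at least 2-fold higher, none was lower, and the median was 1.35, beside 13.3% higher among all named genes, the share that applies to each term here. They include TI1, a trypsin inhibitor of the defensin family, with signals of 87.8 and 517 and a ratio of 2.08 ± 0.56. PR4, a hevein-like antimicrobial protein, had signals of 18.4 and 65.7 and a ratio of 1.57. AT2G37130, annotated as a peroxidase, had signals of 195 and 663 and a ratio of 1.35. For the broader term defense response, 5 of 20 were higher and 15 lay within 2-fold. Under kinase activity 5 of 45 named genes were at least 2-fold higher and 1 was lower. The median was 0.37, beside 0.35 over all named genes. Receptor kinase genes among the higher ones included SOBIR1, a partner of receptor-like proteins, at 1.32 and the leucine-rich repeat kinase AT1G35710 at 1.28. The signals of AT1G35710 were 4.83 and 12.5 in the authors' deposited table. Calcium ion binding held 6 higher genes of 17 named, among them AT2G41090, a calmodulin-like protein with signals of 447 and 1891 and a ratio of 2.09 ± 0.67.

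Of the list for abscisic acid, cold and dehydration, 8 of 25 members were named, of which 4 were at least 2-fold higher with EBR and 4 lay within 2-fold, with a median of 0.92. AT3G02480, a small late-embryogenesis-abundant protein, had signals of 25.2 and 202 and a ratio of 2.33 ± 0.12 (approximate SE). COR15A, a chloroplast protein that protects membranes on freezing, had signals of 306 and 1310 and a ratio of 1.85 ± 0.29. RD20, a caleosin of lipid droplets, had signals of 385 and 841 and a ratio of 1.37 ± 0.52. LTI78, also known as RD29A and a common reporter of dehydration and cold signalling, had signals of 79.1 and 291 and a ratio of 1.17. These are the 4 higher ones, and 13.3% of all named genes were as high. Within 2-fold, the dehydrins COR47, ERD10 and ERD14 lay at 0.26, 0.54 and 0.67, and KCS3, an elongase for very long fatty acids, at 0.68. Under the term response to abscisic acid stimulus, 9 of 12 named genes were at least 2-fold higher (13.3% of all named genes), with a median of 1.30. Examples outside the list are COR413IM1, a cold-regulated protein of the inner plastid envelope, at 2.01, the wall extensin EXT4 at 1.75 and the annexin ANNAT1 at 1.60. Response to cold had 5 higher genes of 16, 11 within 2-fold and a median of 0.73.

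Of 4 named members in the jasmonate and wounding list of 21, 2 were at least 2-fold higher, beside 13.3% of all named genes. AT1G52000, a jacalin-type lectin, had signals of 101 and 520 and a ratio of 2.04. CORI3, a cystine lyase, had signals of 277 and 923 and a ratio of 1.24. LOX2, the chloroplast lipoxygenase that feeds jasmonate synthesis, had signals of 1005 and 2502. Its ratio of 0.93 lay below the threshold, against a log2 difference of 1.29 in the authors' deposited table. The lectin JR1 lay at 0.20. SAG29, a sugar transporter of ageing leaves, had signals of 35.9 and 248 and a ratio of 1.80, while SAG13 lay at 0.88, both from a senescence list of 12. PYD4, an aminotransferase of pyrimidine breakdown, had signals of 39.4 and 238 and a ratio of 2.18 ± 0.73. PGDH, a phosphoglycerate dehydrogenase of serine synthesis, had signals of 125 and 694 and a ratio of 1.70. BGLU18, a beta-glucosidase that frees abscisic acid from its glucose ester, had signals of 827 and 2911 and a ratio of 1.67. IMS2, a methylthioalkylmalate synthase of glucosinolate synthesis, had a ratio of 1.57 and was the 1 named member of its list of 16. GSTF12, needed to bring anthocyanins to the vacuole, lay at 1.48, but at 0.62 in the log2 columns of the authors' deposited table, whose 1 h list leaves it out. PAP1, an activator of anthocyanin genes, lay at 0.41, and these were the 2 named of 14 flavonoid genes.

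**Figure D2:**
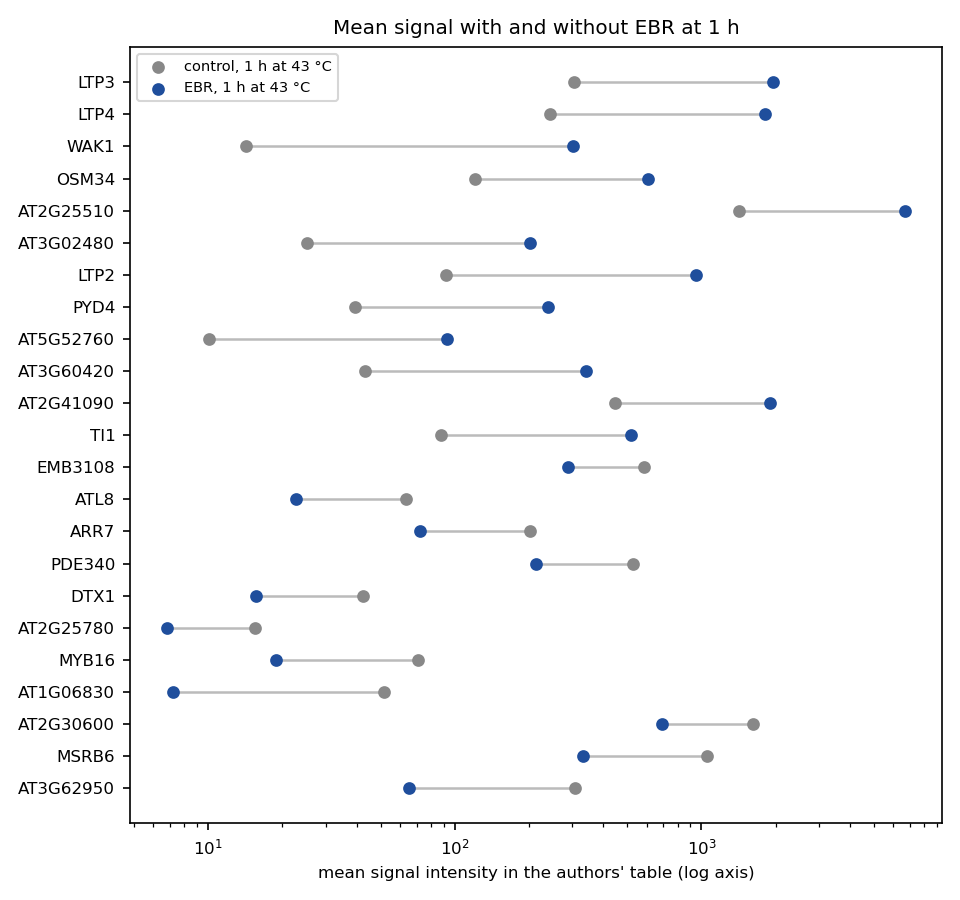
Mean signal intensity in the authors' deposited 1 h table (log axis) for the same 12 highest and, of the 12 lowest, the 11 genes that the table lists; grey points are control and blue points EBR, both after 1 h of heat, without error bars because the table gives means only. The blue point lies to the right for the upper genes, as for WAK1 (14.3 and 302), and to the left for the lower ones, as for AT3G62950 (307 and 65.1).

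The lowest ratios among the named genes were those of the glutaredoxin AT3G62950 and the redox enzyme MSRB6. The BTB/POZ domain gene AT2G30600 came next, at −1.42. Glutaredoxins are small thiol proteins, and a plant-specific class of them binds TGA transcription factors. AT3G62950, a glutaredoxin, had signals of 307 in control and 65.1 with EBR in the authors' deposited table, and a ratio of −1.88 ± 0.19 (approximate SE). AT1G06830, of the same family, had signals of 51.4 and 7.22 and a ratio of −1.29 ± 0.18. At least 2-fold lower were thus 2 of the 8 named members, beside 2.02% of all named genes. The other 6 named members lay between −0.79 and −0.06, so all 8 named of 20 in the list were below 0, with a median of −0.66. Of all 692 named genes, 258 were below 0. AT4G15680 lay at −0.70 and AT4G15700 at −0.79, and since close relatives in this family can share hybridisation, they may not be separate readings. MSRB6, a methionine sulfoxide reductase that repairs oxidised proteins, had signals of 1056 and 332 and a ratio of −1.62 ± 0.27. CSD2, the copper/zinc superoxide dismutase of chloroplasts, had signals of 5100 and 2373 and a ratio of −0.98, and CCS, the chaperone that loads it with copper, had signals of 900 and 356 and a ratio of −0.82. CAT3, a catalase, went the other way at 0.81. The antioxidant list thus had 1 lower gene, 2 within 2-fold and none higher among 3 named of 22.

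Other lower genes were annotated as RNA helicases or plastid proteins, and they come from no list. PDE340, annotated as an RNA helicase, had signals of 526 and 214 and a ratio of −1.09 ± 0.02. Its log2 difference in the authors' deposited table was −1.30, outside this approximate SE. EMB3108, another helicase, had signals of 584 and 287 and a ratio of −1.01 ± 0.18. RFC3, a protein related to plastid ribosomal protein S6, lay at −1.03, but at −0.92 in the log2 columns of the authors' deposited table, and was not listed in its 1 h comparison. FLN2, a fructokinase-like partner of the plastid RNA polymerase, had signals of 378 and 164 and a ratio of −1.01. Under the term RNA binding 3 of 14 named genes were at least 2-fold lower, none was higher, and 12 were below 0. For this and the next terms, the shares to compare are those of all named genes. Of these, 2.02% were at least 2-fold lower, 13.3% at least 2-fold higher, and 258 of 692 below 0. For translation 12 of 13 named genes were below 0, with a median of −0.48. The 1 gene above 0 was RPS2 at 1.01, the immune receptor gene named above. RFC3 was the 1 gene at least 2-fold lower. Embryonic development ending in seed dormancy had all 10 named genes below 0 and none past 2-fold. For the chloroplast term, 49 of 83 were below 0, with a median of −0.36, against a median of 0.35 over all named genes. Past 2-fold were 6 higher and 1 lower of these 83, beside 92 higher and 14 lower of the 692 named genes.

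Other lower genes belong to hormone response, the epidermis and transport. ARR7, a response regulator that dampens cytokinin signalling, had signals of 202 and 72.5 and a ratio of −1.09 ± 0.24 (approximate SE). In the cytokinin and auxin list ARR4 lay at −0.80, RR16 at −0.39 and the auxin-conjugating WES1 at 0.54, with 5 of 15 members named. MYB16, a transcription factor for cuticle formation and cone-shaped petal cells, had signals of 70.6 and 18.8 and a ratio of −1.28 ± 0.06. It was the 1 named epidermal marker of 5, and PI, a floral organ identity gene, was the 1 named floral marker of 5, at −0.72. The RING-type ubiquitin ligase gene ATL8 had signals of 63.6 and 22.6 and a ratio of −1.06. DTX1, an efflux carrier, had signals of 42.5 and 15.7 and a ratio of −1.10. AT2G30600, a BTB/POZ domain protein, had signals of 1618 and 693 and a ratio of −1.42 ± 0.10.

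**Figure D3:**
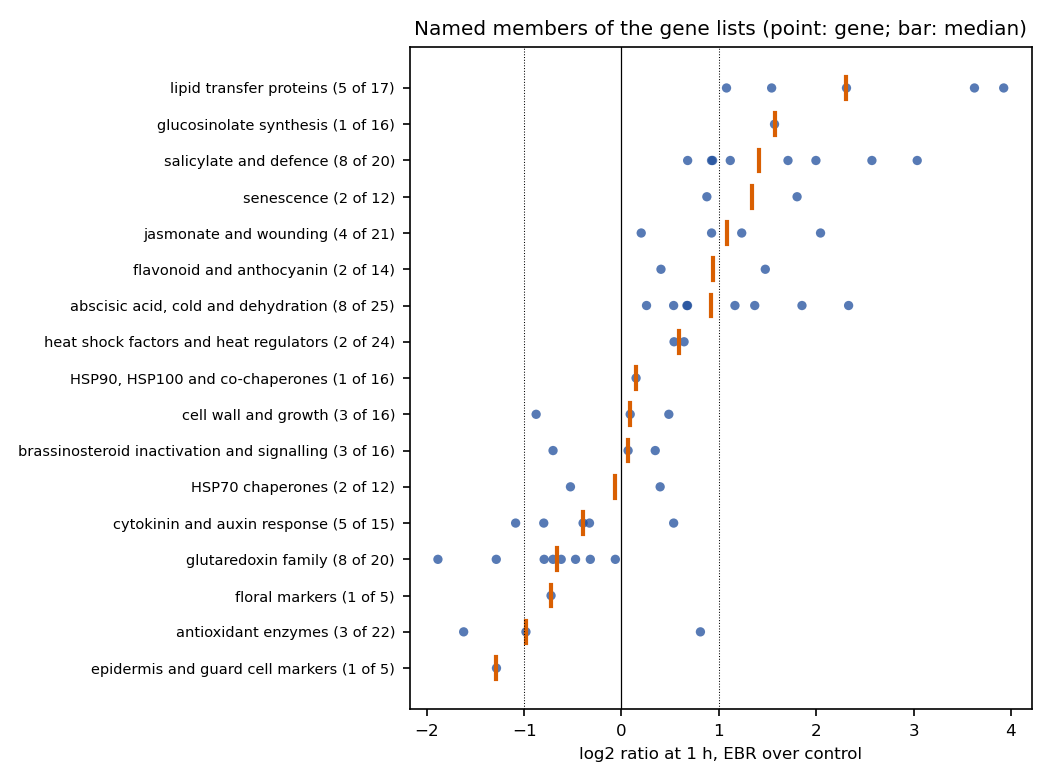
Log2 ratio of EBR over control at 1 h (horizontal axis) for each named member (blue points) of the 17 gene lists with a named member, with the number named of the list size; orange bars are medians, dotted lines mark 2-fold. The 5 named lipid transfer proteins of the list lie above 1 and all 8 named glutaredoxins below 0.

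The chaperone, heat factor and brassinosteroid genes that could be named stayed within 2-fold between the arms in the value table. Of the list of 12 HSP70 chaperones, Hsp70-2 lay at 0.40 and the mitochondrial mtHsc70-1 at −0.52. The co-chaperone J2, a DnaJ protein and the 1 named gene of 16 in its list, lay at 0.15. A heat difference is given here as the 1 h value minus the 0 h value of the same arm, from the log2 columns of the authors' deposited table. For Hsp70-2 it was 5.40 in control and 4.60 with EBR, and the 0 h values it is taken from differed too, with EBR 1.23 above control in the authors' deposited table. For J2 it was 3.58 and 3.43. HSF4, a class B heat shock factor, lay at 0.54 between the arms, with heat differences of 8.10 in control and 6.89 with EBR, each from its own 0 h value, and with EBR 1.33 above control at 0 h in the authors' deposited table. HSF A4A, a class A factor, had signals of 63.4 and 163 and a ratio of 0.64. In the authors' deposited table its log2 difference was larger, at 1.44, which is past 2-fold. Its heat differences were 0.53 in control and 1.38 with EBR. HSF4 and HSF A4A were the 2 named of 24 heat factors. For the hormone itself, the bHLH factor BEE2 lay at −0.70, the brassinosteroid-responsive RING gene BRH1 at 0.35 and BAS1, the enzyme that inactivates brassinosteroids, at 0.07, as the 3 named of 16. No small heat shock protein of 15 and no brassinosteroid synthesis gene of 8 was named, so nothing is reported of them.

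The same probe sets were followed at the 3 stages whose arrays the 1 h comparison did not use. Of the 154 higher probe sets, 152 had a ratio above 0 at 0 h, 154 at 3 h and 147 at recovery. At least 2-fold higher were 95 of them at 0 h (0.95% of all probe sets), 109 at 3 h (0.818%) and 41 at recovery (0.585%), and 24 were so at every stage. Their median ratio was 1.16 at 0 h, 1.30 at 3 h and 0.68 at recovery. Of the 28 lower probe sets, 8 were at least 2-fold lower at 0 h (0.123%), 10 at 3 h (0.154%) and 8 at recovery (0.365%), with medians of −0.77, −0.87 and −0.45. Below 0 were 26, 23 and 25 of them at these stages. The median ratio over all probe sets was −0.04 at 0 h, −0.04 at 3 h and −0.03 at recovery. A ratio below 0 was thus the more common sign on the array at each of these stages.

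A limma fit of the ratios at 0 h, 3 h and recovery against 0, with Benjamini-Hochberg adjustment over all probe sets, called 84 of the 154 (54.5%) higher, where it called 1.15% of all probe sets higher. It called 9 of the 28 (32.1%) lower, where it called 0.818% of all. This test measures the spread between stages, which may share batches of plants. Its calls rest heavily on which stages enter: 262 probe sets were called higher in all, against 68 without 0 h, 1 without 3 h and 1086 without recovery. The lower calls went from 186 to 31, 0 and 778 in the same order. WAK1 had nearly equal ratios at these stages, with 2.96 at 0 h, 2.94 at 3 h and 2.94 at recovery (mean 2.95 ± 0.013, SD, n = 3 stages, limma adjusted p = 0.000342). AT2G25510, a protein of unknown function with signals of 1414 and 6692 and a 1 h ratio of 2.42, had 2.15, 2.63 and 2.15 (adjusted p = 0.00585, limma). LTP3 had 3.57, 3.33 and 3.16 (adjusted p = 0.000612, limma) and LTP4 had 4.07, 3.20 and 2.97 (adjusted p = 0.0109, limma). Both lipid transfer genes thus stood high at the stages without the 1 h arrays as well.

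On the lower side AT3G62950 had ratios of −1.72, −1.73 and −2.28 at 0 h, 3 h and recovery (limma adjusted p = 0.0128), and MSRB6 had −1.11, −1.43 and −1.83 (adjusted p = 0.0205, limma). AT1G06830 had −1.65, −1.38 and −1.55 (adjusted p = 0.00798, limma). CCS stayed between −0.85 and −0.80 at the other stages (adjusted p = 0.0205, limma). Of the glutaredoxin list, 6 of 8 named members were called lower in this fit and none higher. Of all 692 named genes, which the authors selected on these arrays, 66 were called lower and 129 higher. Some dehydration genes, and the defence gene OSM34, were high at each stage but recovery. AT3G02480 had 3.40 at 0 h, 3.16 at 3 h and 0.27 at recovery, and COR15A had 1.83, 1.58 and 0.16. OSM34 had 1.37, 2.66 and 0.30. These 3 genes were not called over the other stages, with limma adjusted p of 0.11, 0.112 and 0.127.

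**Figure D4:**
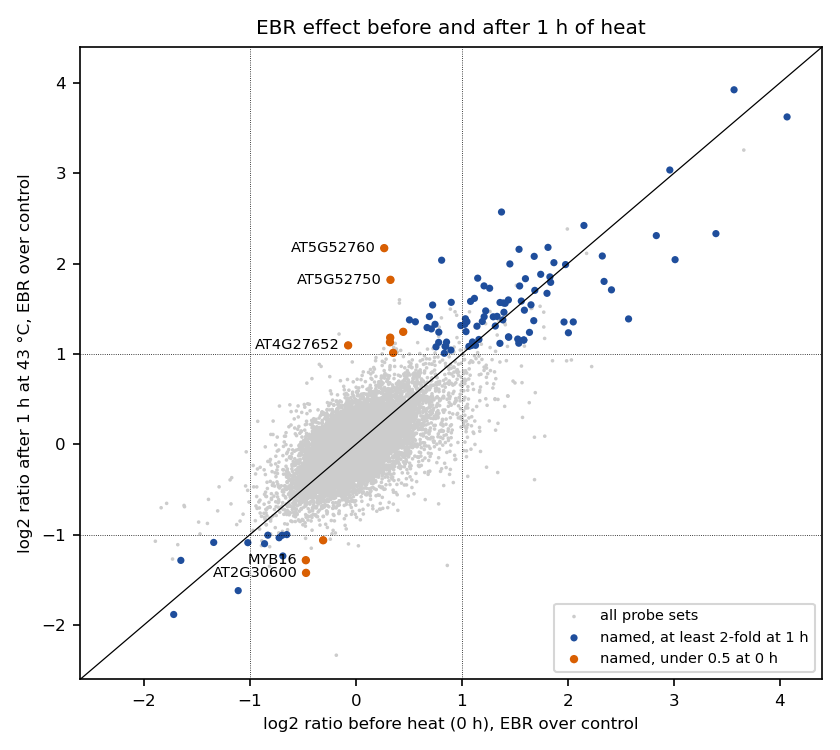
Log2 ratio of EBR over control before heat (horizontal axis) and after 1 h at 43 °C (vertical axis) for all 22746 probe sets in grey, named genes at least 2-fold apart at 1 h in blue, and those of them under 0.5 in size at 0 h in orange; the solid line marks equal values and dotted lines 2-fold. AT5G52760 and AT5G52750 lie far above the line, at 2.17 and 1.82 after heat against 0.27 and 0.33 before.

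A smaller group was past 2-fold at 1 h with little difference before heat. Of the 154 higher probe sets, 59 were under 2-fold at 0 h and 18 had a 0 h ratio under 0.5, of which 7 are named. AT5G52760, a heavy-metal-associated domain protein, had signals of 10.1 in control and 92.8 with EBR at 1 h. Its ratio was 0.27 at 0 h, 2.17 at 1 h, 1.39 at 3 h and 1.07 at recovery. Its heat difference, 1 h minus 0 h of the same arm in the authors' deposited table, was 0.40 in control and 3.32 with EBR on the log2 scale. These heat differences share the 1 h arrays with the EBR ratio, so they are another view of the same measurement.

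The neighbouring AT5G52750, with the same domain, had ratios of 0.33, 1.82, 1.06 and 0.85 at the 4 stages in order, and heat differences of 0.52 and 2.39 in the authors' deposited table. Their loci are numbered next to each other, and shared hybridisation between them was not tested. AT1G66090, an immune receptor of the TIR class, had signals of 357 and 973 and went from 0.32 at 0 h to 1.18 at 1 h. AT4G27652, of unknown function, had signals of 502 and 990 and went from −0.07 to 1.10. For both, heat made a large difference in either arm, with 5.49 in control and 6.25 with EBR for AT1G66090 and 5.10 and 5.88 for AT4G27652 in the authors' deposited table. The other named ones are CRK10, a cysteine-rich receptor-like kinase, at 1.25, NATA1, an acetyltransferase, at 1.13, and CAD1, a phytochelatin synthase, at 1.01. Of the 28 lower probe sets, 10 were under 0.5 in size at 0 h, and the 3 named are MYB16, from −0.47 to −1.28, AT2G30600, from −0.47 to −1.42, and ATL8, from −0.31 to −1.06.

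The difference between the 1 h ratio and the mean of the other stages was tested for every probe set. A limma contrast called 0 of 22746 probe sets (0%) after Benjamini-Hochberg adjustment, and the lowest adjusted p was 0.999. Without adjustment, 429 of the 22746 probe sets were higher and 343 lower at p under 0.05. Together these are fewer than that threshold would pick on average with no difference at any probe set. AT5G52760 had the largest named difference, 1.26 above the other stages (unadjusted p = 0.0228, adjusted p = 0.999, limma), followed by OSM34 at 1.13, AT5G52750 at 1.08, AT4G27652 at 1.00 and IMS2 at 0.89. In the other direction AT2G30600 lay 0.88 below (difference −0.88), AT5G37540, annotated as an aspartyl protease, at −0.73, and the auxin-inducible SAUR9 at −0.72. MURE, a plastid protein related to a bacterial wall enzyme, had a difference of −0.67, and AT4G34480, a glucan hydrolase gene, of −0.65. SAUR9 stood out through its ratio of 1.78 at 0 h, beside 0.09 at 1 h. The contrast rests on a single ratio at 1 h, which was assumed to vary like the other stages, and the absence of calls does not show that the effects were equal.

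The authors' deposited 1 h table gives a second measure of the same arrays. It lists 239 probe sets, 184 with the higher signal in EBR (0.809% of all) and 55 with the lower (0.242%), so that 77.0% of its probe sets were higher. Signals ran from 4.83 to 5100 in control, with a median of 54.8, and from 6.80 to 7867 with EBR, with a median of 111. The direction was equal in both tables for 239 of 239 probe sets, but 112 of them reached 2-fold in the value table. The shortfall was larger where signals were low. Among the 80 probe sets with the lower signal between 4.83 and 21.2, the value table ratio was a median of 60.8% of the authors' log2 difference, and 34 reached 2-fold. Among the 79 between 21.4 and 85.8 it was 64.0%, and 29 reached 2-fold. Among the 80 from 87.8 upward it was 82.2%, and 49 did. LURP1, with a control signal of 7.16, had a ratio of 2.00 against 4.15 in the authors' deposited table, whereas AT2G25510, with a control signal of 1414, had 2.42 in both. AT1G06830 had −1.29 against −2.82 and AT2G40010, annotated as a ribosomal protein, had −0.84 against −1.88 in the authors' deposited table.

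**Figure D5:**
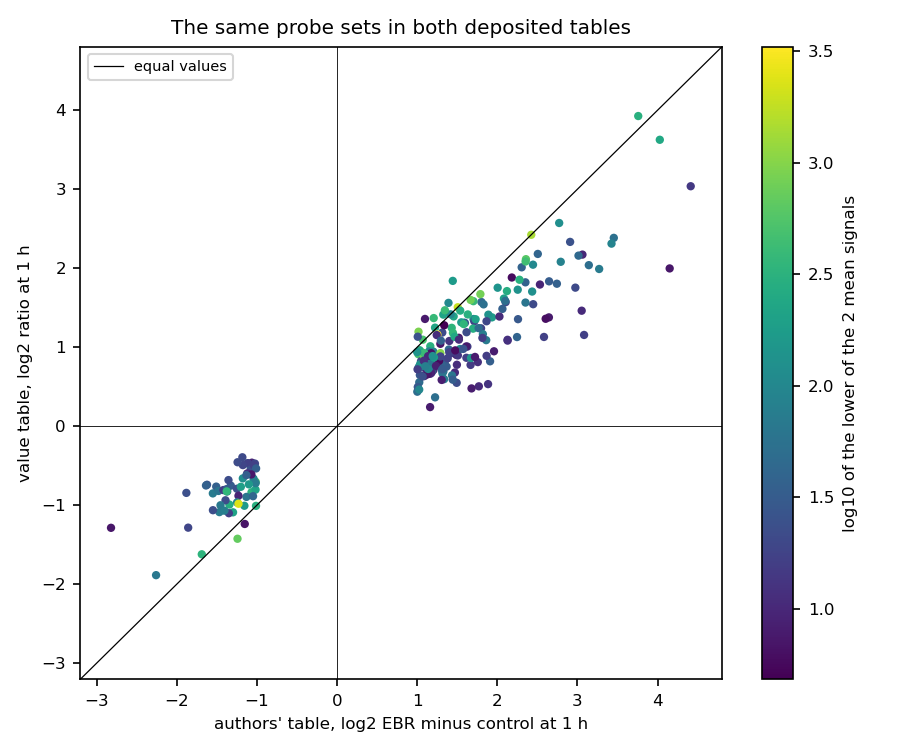
Log2 EBR minus control in the authors' deposited 1 h table (horizontal axis) against the log2 ratio of the value table (vertical axis) for its 239 probe sets, coloured by log10 of the lower of both mean signals; the line marks equal values. All points share their sign, and probe sets with low signals lie closest to 0 relative to the line, with medians of 60.8% of the authors' value in the lowest range and 82.2% in the highest.

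The 68 probe sets past 2-fold that lie outside the authors' tables carry no gene name here. Their 55 higher members had a median ratio of 1.11 and a median approximate control SD of 0.388, beside 1.42 and 0.277 for the 99 higher probe sets in those tables. The 13 lower ones had a median of −1.12 and an SD of 0.257, beside −1.09 and 0.219. Over the other stages limma called 19 of these 55 higher and 4 of these 13 lower. The lowest ratio of the array at 1 h was −2.34, of an unnamed probe set that had −0.18 at 0 h, 0.98 at 3 h and 0.24 at recovery. The highest ratio among the unlisted ones was 3.26, with an approximate control SD of 1.44 and with 3.66, 4.03 and 0.12 at the other stages. At least 3 approximate SEs from 0, with the control spread pooled over stages, were 121 of the 154 higher and 23 of the 28 lower probe sets. Of all probe sets 17.3% were so. The 154 and 28 were chosen by the size of the same ratio, so their larger share is no support for them.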

How the data were processed

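Biotin-labelled shoot RNA was hybridised to ATH1 arrays. MAS5 and GCRMA appear in the submitters' processing notes, and the step that combined replicate arrays is not stated. The deposited value table holds a linear ratio per probe set and sample. The authors' deposited tables hold signal intensity, linear fold values and log2 values per condition, and per the file headers their probe sets passed an analysis of variance and a fold of 2. Fold signs were turned to EBR minus control. The control values never exceed 1 and were read as geometric over arithmetic means of the replicate arrays, an inference that the approximate SD rests on. Log2 ratios were tested with limma 3.58.1 in R 4.3.3, checked on simulated data. The number of arrays limits the precision. Names came from the authors' locus column, and symbols from RefSeq's TAIR10.1 table.

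Members and lists were chosen with earlier results of these data known. The rule named, among probe sets with 1 locus, the 12 highest and 12 lowest ratios, the 5 largest differences from the other stages each way, and at most 4 genes from each of 22 lists and from each term with at least 5 genes past 2-fold, 95 genes in all. RPS2, SPDS3, AT2G34357, TUB8, CHI, HCHIB, WAK2, CBP60G, COR47, ERD10, ERD14, KCS3, AT5G01870, CCS, FLN2, CRK10, NATA1, CAD1, PCC1 and AT2G40010 were named after their values were seen, where they fall outside it. Alternatives were other scalings, filters, the EBR column alone, the authors' tables, robust moderation and leaving out a stage.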

Additional observations from a re-analysis of the deposited data

Results flagged for a closer look

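For AT4G27652 the EBR ratio had the opposite sign at 0 h (−0.073) and at recovery (−0.36) to that at 1 h (1.10) and 3 h (0.72). For LTI78 the ratio at recovery was −0.0063, against 1.17 at 1 h, which is a difference of sign at a value next to 0. These pairs were picked by sign from single values of each stage. Differences between single stages were not tested, and the limma contrast of 1 h against the mean of the other stages gave an adjusted p of 0.999 for both genes.

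The array control probe sets, which no comparison used, showed a larger 3′ minus 5′ difference in EBR than in control at 1 h, by 0.47 for the first actin pair, 0.40 for the first GAPDH pair, 0.57 for the second actin pair and 0.29 for the second GAPDH pair (log2). The part of this in the gene results was not tested.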

How the results depend on the processing

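The count of probe sets at least 2-fold higher at 1 h, 154, ran from 121 to 184 over 6 alternatives, and the lower count, 28, from 23 to 40 over 5 of them. The authors' deposited table, chosen as an alternative after seeing the data like the filter on 3 approximate SEs, lists 55 lower ones. Leaving out 1 stage moved the calls over the other stages from 262 to between 1 and 1086 for higher and from 186 to between 0 and 778 for lower probe sets. These fits have 2 stages each. Centring each stage on its median gave 305 and 128 calls, so that 70.4% rather than 58.5% were higher, and robust moderation gave 255 and 179. The contrast of 1 h against the other stages called 0 probe sets under centring and with any 1 stage left out. Of the 95 genes named by rule, none moved beyond the approximate spread under centring or with the EBR column alone. Centring took the same median of −0.0075 from every ratio, and control values had a median of 0.998. Both settings therefore left little room for a gene to move. With the EBR column alone LTP3 still fell from 3.93 to 3.12, below LTP4, which went from 3.63 to 3.43. With the authors' log2 columns 48 stayed within the approximate spread, 46 moved, and AT4G34480 turned from −0.03 to 0.52, and the cause was not tested. No paired analysis was possible because each group has 1 deposited sample and the columns carry no replicate numbers. Without a replicate value per stage, no p-value at 1 h alone can be had. Value table ratios lay furthest below the authors' values at low signals.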

Other observations

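Further genes past 2-fold at 1 h were not described by name above. AT3G60420, annotated in the phosphoglycerate mutase family, had signals of 43.4 in control and 341 with EBR in the authors' deposited table and a ratio of 2.16. SIB1, which binds plastid sigma factors and takes part in defence, had signals of 135 and 621 and a ratio of 1.73. PCC1, a gene of the pathogen response under clock control, had signals of 49.4 and 526 and a ratio of 2.04. LUP1, a lupeol synthase of triterpene synthesis, lay at 1.57, PLA2A, a lipid acyl hydrolase, at 1.38 and AOX1D, an alternative oxidase of mitochondria, at 1.36. APL3, a large subunit of the enzyme that starts starch synthesis, lay at 1.33, and PAP17, an acid phosphatase, at 1.42 with signals of 308 and 989.

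Genes of growth and the cytoskeleton differed in direction within families. TUB1, a beta-tubulin gene, had signals of 29.2 and 87.9 and a ratio of 1.31, whereas TUB8, of the same family, had signals of 705 and 277 and a ratio of −0.99. Among expansins, which loosen cell walls, EXPA11 lay at 0.49 and EXPA1 at −0.88, and with SAUR9 at 0.09 they are the 3 named members of a cell wall and growth list of 16, none past 2-fold.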
